A study of Mus musculus with 11 samples.

Results

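The genes described here encode 10 surface proteins of B cells, most of which give signals to, or receive signals from, helper T cells, and of which Tnfrsf13c and Tnfrsf13b are receptors for the B cell survival factor BAFF. They were chosen by name, and each was found once by its Ensembl identifier among the 48795 genes of the TPM table. By role they are the costimulatory ligands Cd80, Cd86 and Icosl, the inhibitory ligands Cd274 and Pdcd1lg2, the TNF receptor family members Cd40, Tnfrsf14, Tnfrsf13c and Tnfrsf13b, and the SLAM family receptor Slamf1. TPM are estimated reads per transcript length, scaled to a fixed library total, so that levels can be compared between genes within a library.

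Splenic B cells were sorted on day 10 after intravenous injection of sheep red blood cells (SRBC) into mice of 8 to 12 weeks on a C57BL/6 background. Light zone (LZ) germinal center B cells, gated among other markers as CD138neg, IgDneg, B220+, CD38low, CD95high, CXCR4low and CD86high, came from 4 Myc WT and 4 Myc V394D mice. Myc V394D is a germline change at the endogenous Myc locus that replaces a valine of MYC by aspartic acid and abolishes binding to MIZ1, so every cell of these mice carries it. Memory B cells (MBCs), gated among other markers as CD138neg, B220+, AA4.1neg, CD38+, IgDneg and CD273+, came from 3 of the same Myc WT mice, those numbered 1, 3 and 4, and there were no MBCs of the mutant. Each library was made from 1 mouse. The Myc WT mice 1 to 3 share 1 title prefix, mouse 4 has a different one and the Myc V394D mice share one of their own, so genotype and title prefix cannot be told apart.

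Both gates touch the genes described. CD86 was a gate of the LZ sort, and CD273, the product of Pdcd1lg2, was a gate of the MBC sort. Differences of Cd86 and Pdcd1lg2 between MBCs and LZ B cells are therefore given as values that the sort may set.

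In the germinal center, B cells take up antigen, present it to follicular helper T cells and compete for their help. CD40 receives the CD40 ligand signal, ICOSL engages ICOS, and CD80 and CD86 engage CD28 or the inhibitory receptor CTLA4, whereas PD-L1 (Cd274) and PD-L2 (Pdcd1lg2) engage the inhibitory receptor PD-1. The BAFF receptor (Tnfrsf13c) transmits survival signals, TACI (Tnfrsf13b) binds both BAFF and APRIL, and HVEM (Tnfrsf14) is the partner of BTLA. CD80 and PD-L2 are used in mice to divide memory B cells into subsets.

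Marker genes followed the labels of the sorts. Summed TPM of 8 germinal center markers were 1370 to 1641 in Myc WT LZ, 1203 to 1639 in Myc V394D LZ and 329 to 448 in MBCs, and those of 10 memory and naive markers were 267 to 291, 233 to 295 and 1376 to 1628. The 14 T cell markers and counter-receptors summed to 42.5 to 54.6, 17.03 to 45.2 and 170 to 217 TPM, most of it from Cd2, which B cells also express, at 33 to 46.7, 14.6 to 38.4 and 161 to 216 TPM. Cd2 was called higher in MBCs, and Lat, which reached the mean needed through the LZ libraries, lower. Myeloid and dendritic markers, 15 in all, summed to 26.9 to 36.1 TPM in Myc WT LZ, 28.6 to 37.4 in Myc V394D LZ and 131, 83.6 and 302 in MBC libraries 1, 3 and 4. Of these markers, 3 were called higher in MBCs than in Myc WT LZ, Csf1r (limma adjusted p = 0.00652), Itgam (adjusted p = 0.0137) and Tyrobp (adjusted p = 0.0393), of which Csf1r and Itgam reached the mean of 1 TPM needed for the test only through the MBC libraries. Csf1r, the receptor for the macrophage growth factor, was at 9.99, 5.89 and 16.4 TPM in MBC libraries 1, 3 and 4 and at 0.08 or less in Myc WT LZ. The most abundant of the markers in MBCs, Lyz2, stood at 0.15, 31.2 and 136 TPM, while S100a8 and S100a9 were listed at 0 in all MBC libraries. Fcer1g stood at 53.8, 0 and 62.3 TPM and Tyrobp at 31.1, 7.51 and 27.75 TPM, so not all of these markers were low in MBC library 1. The 8 erythroid and platelet markers summed to 7.60, 6713 and 53.4 TPM in MBC libraries 1, 3 and 4, to 116 to 226 in Myc WT LZ and to 343, 409.6, 352 and 71.9 in Myc V394D LZ, where 3 of 4 libraries lay above all of Myc WT. The 8 plasma cell markers summed to 431 to 649 TPM in Myc WT LZ, 230.5 to 376 in Myc V394D LZ, with no overlap, and 247 to 571 in MBCs. In each of these 2 lists, 6 markers were tested between genotypes and none was called by limma, with an unadjusted p under 0.05 for 3 erythroid and platelet and 2 plasma cell markers, and the part of these cells in the genotype results was not tested. MBC library 4 had 16040 genes above 0, against 12983 and 11527 in MBC libraries 1 and 3. Its correlation with the Myc WT LZ libraries was 0.82 to 0.84, against 0.67 to 0.68 for the other MBC libraries (Pearson r across genes that averaged 1 TPM or more, on log2(TPM + 1)). Within MBCs, library 4 had an r of 0.75 and 0.74 with libraries 1 and 3, which had 0.65 with each other. Within Myc WT LZ, r was 0.91 to 0.95. Myc, whose coding change leaves its transcript to be counted in either genotype, was at 30.7 to 45.2 TPM in Myc WT LZ and 24.9 to 66.8 in Myc V394D LZ, so its level does not check the genotype labels. Ribosomal RNA genes took 35.7 to 44.5% of TPM in Myc WT LZ, 44.1 to 61.3% in Myc V394D LZ and 36.1 to 37.5% in MBCs.

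In MBCs, 4 of the 10 genes were higher than in Myc WT LZ B cells: both inhibitory ligands, the costimulatory ligand Cd80 and TACI. With the mouse as a block, since MBC and LZ libraries 1, 3 and 4 share mice, 2 were called, Cd274 and Pdcd1lg2. This fit also left out Myc WT LZ library 2, whose mouse gave no MBC library. Leaving out that library with no block called the same 2. Cd80 reached the mean of 1 TPM needed for the test only through the MBC libraries, in which it is high, and is left out of any reading of the count. Without it, 3 of the other 9 genes were called, among them Pdcd1lg2, whose product was a gate of the MBC sort. Mean TPM in MBCs were 12.9 times as high for Cd274, 14.04 times for Pdcd1lg2, 29.1 times for Cd80 and 2.41 times for Tnfrsf13b. No gene of the 10 was called lower. In LZ B cells, none of the 9 genes that could be tested differed between Myc V394D and Myc WT. Calls are at an adjusted p under 0.05 from limma on log2(TPM + 1) with Benjamini-Hochberg adjustment over all genes tested. Of the 13245 genes tested between MBCs and LZ B cells, 4.17% were called higher and 5.04% lower, and of the 12869 tested between genotypes 0.00777% were called higher and 0.0389% lower. In these bulk libraries, fewer cells of a type and less RNA per cell cannot be told apart.

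**Figure D1:**
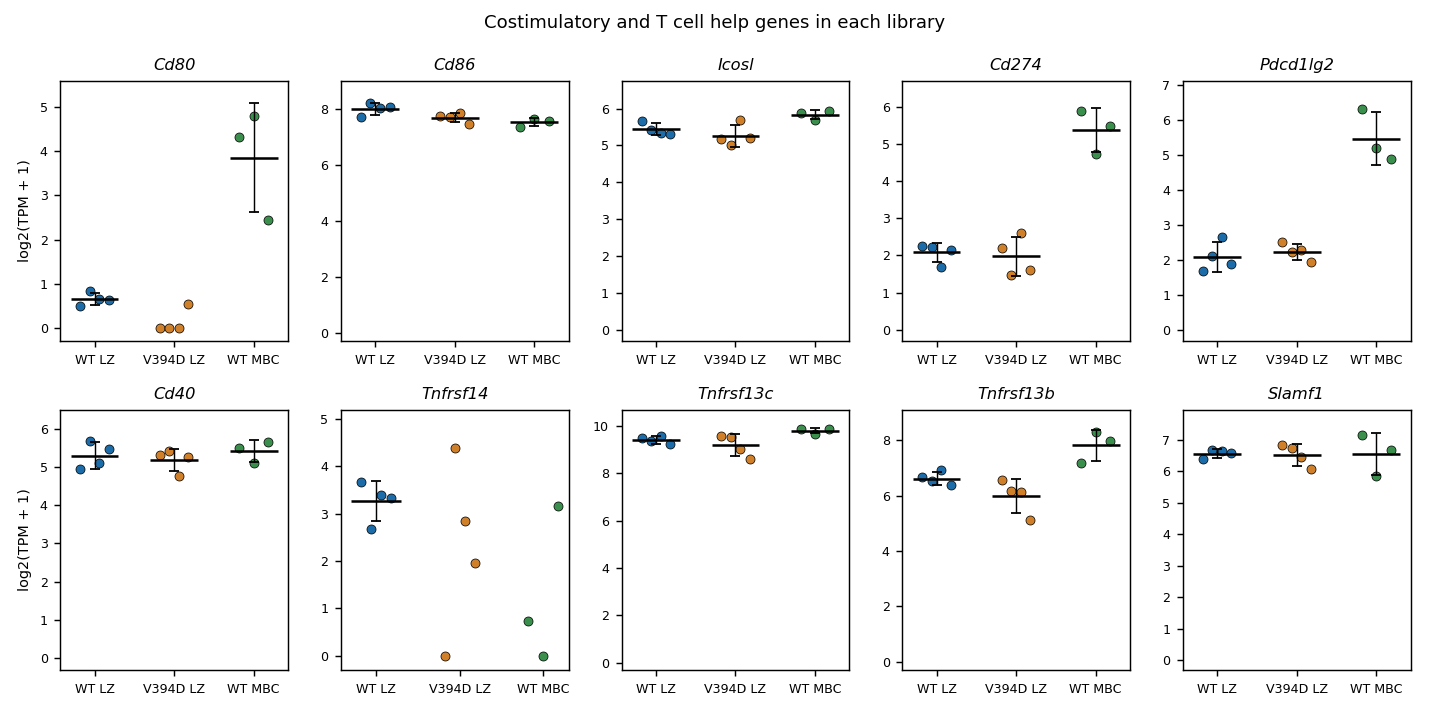
Each point is 1 library, on the log2(TPM + 1) scale, for the 10 genes in Myc WT LZ, Myc V394D LZ and Myc WT MBCs. Bars give the mean and error bars the SD, left out where a library of the group is at 0. For Cd80, Cd274, Pdcd1lg2 and Tnfrsf13b all 3 MBC libraries lie above all 8 LZ libraries.

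The sequences upstream of the 4 genes called in MBCs are shown because these genes were higher in the same comparison. RefSeq promoter windows (GRCm38.p6), reaching from 250 bases before to 50 after the start of the gene, were matched for 8 of the 10 genes, and Cd40 and Cd86 had no entry. Only the longest upstream stretch free of exons annotated in GENCODE M21 is printed, 5′ to 3′ on the strand of the gene, with any match to the motifs searched in capitals. The Cd274 window also holds exon bases of Plgrkt, which leaves 47 bases, and the Cd80 window lies inside the longer gene model of GENCODE.
Cd80, chr16:38458683-38458932, + strand: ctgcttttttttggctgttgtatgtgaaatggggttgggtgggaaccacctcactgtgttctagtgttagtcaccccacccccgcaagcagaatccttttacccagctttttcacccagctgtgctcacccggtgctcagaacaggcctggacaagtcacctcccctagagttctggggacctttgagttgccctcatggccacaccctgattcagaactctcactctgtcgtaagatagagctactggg
Cd274, chr19:29367391-29367437, + strand: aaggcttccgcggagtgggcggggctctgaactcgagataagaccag
Pdcd1lg2, chr19:29410669-29410918, + strand: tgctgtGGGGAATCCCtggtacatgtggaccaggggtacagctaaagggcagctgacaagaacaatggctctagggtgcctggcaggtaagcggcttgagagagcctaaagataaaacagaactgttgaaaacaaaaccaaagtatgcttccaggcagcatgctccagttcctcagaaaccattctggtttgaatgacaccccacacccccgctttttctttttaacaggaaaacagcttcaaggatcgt
Tnfrsf13b, chr11:61126505-61126754, + strand: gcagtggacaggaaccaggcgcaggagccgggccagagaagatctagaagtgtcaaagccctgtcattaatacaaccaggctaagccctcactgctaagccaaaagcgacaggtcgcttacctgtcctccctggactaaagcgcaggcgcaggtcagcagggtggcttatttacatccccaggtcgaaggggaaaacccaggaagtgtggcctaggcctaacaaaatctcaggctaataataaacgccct

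The motifs were the E box CACGTG bound by MYC with MAX, the GAS element TTCNNNGAA bound by STAT factors, and the kB motif bound by NF-kB factors, each searched on both strands. Among these 4 windows only that of Pdcd1lg2 held a match, the kB motif GGGGAATCCC at 244 to 235 bases upstream of the start. The other match among the 8 windows was the kB motif GGAGCTCCCC in that of Icosl, at 111 to 102 bases upstream. No window of the 8 held the E box or the GAS element. Of all 32851 RefSeq windows of this length, 8.46% held the kB motif, 7.15% the E box and 8.30% the GAS element. CpG dinucleotides numbered 26 in the window of Icosl and 15 in that of Cd274, against 3 in those of Cd80 and Pdcd1lg2 and 8 in that of Tnfrsf13b, with a median of 7 over all windows.

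Of the costimulatory ligands, Cd80 and Cd86 share receptors and differed in level by orders of magnitude in LZ B cells. Cd86 was at 207, 289.9, 258 and 265 TPM in Myc WT LZ libraries 1 to 4, at 211, 206, 227 and 175 in Myc V394D LZ libraries 1 to 4, and at 163, 197 and 187 in MBC libraries 1, 3 and 4. All MBC libraries lay below all Myc WT LZ libraries, in a gene that was a gate of the LZ sort, while the Myc V394D range crossed both. The difference from Myc WT LZ was -0.48 ± 0.20 (SE; limma adjusted p = 0.171) in MBCs and -0.31 ± 0.18 (adjusted p = 0.413) in Myc V394D, on the log2(TPM + 1) scale as are all differences below.

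Cd80 was the lowest of the 10 genes in the LZ libraries, at 0.41, 0.78, 0.58 and 0.54 TPM in Myc WT and at 0, 0, 0 and 0.46 in Myc V394D. In MBC libraries 1, 3 and 4 it was at 19.2, 26.8 and 4.47 TPM. The lowest MBC library, number 4, which also had the highest sum of myeloid markers and was the closest to the LZ libraries across genes, was still above the highest LZ library at 0.78. The difference between MBCs and Myc WT LZ was 3.21 ± 0.63 (SE, 95% interval 1.77 to 4.64; limma adjusted p = 0.0186, in a gene that passed the filter only through MBCs), and the exact two-sided permutation test over 35 groupings gave its smallest possible p of 0.0286. Without MBC library 4 the difference was 3.91 (adjusted p = 0.00246), and within mice 1 to 3, which share a title prefix, it was 3.90 (adjusted p = 0.0163). The call was lost with the mouse as a block (adjusted p = 0.107) and on leaving out Myc WT LZ library 1, 2, 3 or 4 (adjusted p = 0.0629 to 0.0712), with a difference of 3.16 to 3.27 in all of these. Between genotypes Cd80 fell under the mean of 1 TPM needed for the fit, and the exact two-sided permutation test over 70 groupings gave p = 0.0571.

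Icosl was at 50, 41.8, 39.7 and 38.8 TPM in Myc WT LZ, at 35.1, 30.95, 50.2 and 35.7 in Myc V394D LZ and at 57.4, 50.6 and 60.6 in MBCs. Every MBC library was above every LZ library, by as little as 50.6 against 50.2 TPM. The difference was 0.40 ± 0.25 in MBCs (SE; limma adjusted p = 0.352) and -0.18 ± 0.22 in Myc V394D (adjusted p = 0.718), so neither passed the test.

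The inhibitory ligands were both low in LZ B cells of either genotype. Their genes lie next to each other on chromosome 19 and the same strand in GRCm38, Cd274 at chr19:29367455-29388095 and Pdcd1lg2 at chr19:29410919-29471161, with 22823 bases between them. Cd274 was at 3.79, 3.70, 2.25 and 3.44 TPM in Myc WT LZ, at 3.6, 1.78, 5.04 and 2.07 in Myc V394D LZ, and at 58.4, 25.4 and 44.1 in MBCs. The ranges of the genotypes overlapped fully, and the lowest MBC library was far above the highest LZ library. The difference between MBCs and Myc WT LZ was 3.28 ± 0.44 (SE, 95% interval 2.30 to 4.27; limma adjusted p = 0.0043), and the call held in all 18 alternatives run, the mouse as a block included (adjusted p = 0.000779 to 0.0424). Without MBC library 4, which held the highest sum of myeloid markers, the difference was 3.22 (adjusted p = 0.00598). Without MBC library 3, which held the most hemoglobin, it was 3.61 (adjusted p = 0.00228), and without MBC library 1 it was 3.02 (adjusted p = 0.0107). Cd274 is also a gene of myeloid cells, and its MBC values of 58.4, 25.4 and 44.1 TPM came with summed myeloid markers of 131, 83.6 and 302 TPM. The part of such cells in the inhibitory ligands and Cd80 beyond these values was not tested. Between genotypes the difference was -0.11 ± 0.39 (adjusted p = 0.907).

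Pdcd1lg2 was at 2.23, 3.38, 5.32 and 2.73 TPM in Myc WT LZ, at 4.73, 3.68, 3.89 and 2.84 in Myc V394D LZ, and at 78.9, 36.3 and 28.65 in MBCs. Its MBC values, from cells gated on its product, were above all LZ values, by 3.38 ± 0.49 (SE; limma adjusted p = 0.00563) against Myc WT LZ. That call also held in all 18 alternatives (adjusted p = 0.000654 to 0.0457). Between genotypes the difference was 0.15 ± 0.36 (adjusted p = 0.867), with an interval of -0.65 to 0.95. The inhibitory ligands together made up 6.02 to 7.57 TPM in Myc WT LZ, 4.91 to 8.93 in Myc V394D LZ and 137, 61.7 and 72.7 in MBC libraries 1, 3 and 4.

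Both BAFF-binding receptors were among the most abundant of the 10 genes. Tnfrsf13c was the most abundant in every group, at 717, 649, 766 and 597 TPM in Myc WT LZ, 769, 729.95, 526 and 391 in Myc V394D LZ and 929, 814 and 938 in MBCs. The MBC libraries lay above all LZ libraries, but the difference of 0.39 ± 0.17 (SE; limma adjusted p = 0.173) was not called, unless values were quantile normalized (0.60, adjusted p = 0.0393) or immunoglobulin and mitochondrial genes were removed (0.62, adjusted p = 0.0328). Between genotypes it was -0.22 ± 0.23 (adjusted p = 0.651).

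Tnfrsf13b was at 100.04, 90.6, 119.7 and 81.9 TPM in Myc WT LZ, at 93.9, 70.04, 69.4 and 33.8 in Myc V394D LZ and at 145, 314 and 249 in MBCs. MBCs were above all LZ libraries, with a difference from Myc WT LZ of 1.20 ± 0.30 (SE, 95% interval 0.53 to 1.88; limma adjusted p = 0.0389). This call was close to the threshold. It was kept without MBC library 1 (adjusted p = 0.0149) and lost on leaving out any other library, with adjusted p of 0.0626 without MBC library 3, 0.0605 without MBC library 4 and 0.0799 to 0.117 without a Myc WT LZ library. It was also lost with the mouse as a block (1.17, adjusted p = 0.143), within mice 1 to 3 (1.05, adjusted p = 0.131), with no filter on low values (adjusted p = 0.151) and without a trend in the variance (adjusted p = 0.0948), always with the same direction. Between genotypes the difference was -0.62 ± 0.29 (adjusted p = 0.31), with Myc V394D library 4, which had the highest share of ribosomal RNA, the lowest of all.

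Cd40, the receptor for the central helper signal, was at 29.6, 50.5, 33.1 and 43.45 TPM in Myc WT LZ, at 38.3, 41.9, 26.1 and 37.1 in Myc V394D LZ and at 44.3, 33.03 and 49.3 in MBCs. The 3 groups overlapped. The differences were 0.12 ± 0.31 in MBCs (SE; limma adjusted p = 0.845, 95% interval -0.59 to 0.82) and -0.11 ± 0.25 in Myc V394D (adjusted p = 0.851, interval -0.66 to 0.44).

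Tnfrsf14 was spread widely within groups, at 11.8, 5.44, 9.48 and 9.12 TPM in Myc WT LZ, 0, 20.02, 6.16 and 2.88 in Myc V394D LZ and 0.67, 0 and 8.00 in MBCs. The highest and a lowest value among all 11 libraries both fell in Myc V394D. The difference in MBCs was -1.97 ± 0.76 (SE; limma adjusted p = 0.135), which passed the threshold without MBC library 4 (-2.90, adjusted p = 0.00924) and within mice 1 to 3 (-2.88, adjusted p = 0.038). It was -1.32 without MBC library 3 (adjusted p = 0.217) and -3.35 with a pseudocount of 0.1 (adjusted p = 0.158). Between genotypes it was -0.98 ± 0.73 (limma adjusted p = 0.526), and single libraries moved it, to -0.21 without Myc V394D library 1 and -1.67 without Myc V394D library 2. Its partner Btla, on the list of other B7, BTN and checkpoint ligands, was at 116 to 126 TPM in Myc WT LZ, 67.2 to 119 in Myc V394D LZ and 240.4 to 445 in MBCs.

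Slamf1, a receptor that binds itself on the opposing cell, was at 82.1, 100.2, 98.5 and 93.7 TPM in Myc WT LZ, at 114, 106, 85.6 and 65.5 in Myc V394D LZ and at 140.2, 56.5 and 100.3 in MBCs. The MBC libraries spanned the whole range of the LZ libraries, and the differences were -0.01 ± 0.32 (SE; limma adjusted p = 0.987) in MBCs and -0.04 ± 0.22 (adjusted p = 0.941) in Myc V394D.

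Counted without a model and without Cd80, 5 of the other 9 genes had all MBC libraries above all Myc WT LZ libraries, namely Cd274, Pdcd1lg2, Tnfrsf13b, Icosl and Tnfrsf13c, and 1, Cd86, had all below. Over all genes tested, 11.8% did not overlap in the higher and 14.4% in the lower direction. The median difference of these 9 was 0.39, against -0.14 over all genes tested. The products of Pdcd1lg2 and Cd86 were gates of the sorts, so their part in these counts and this median may be set by the sort.

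**Figure D2:**
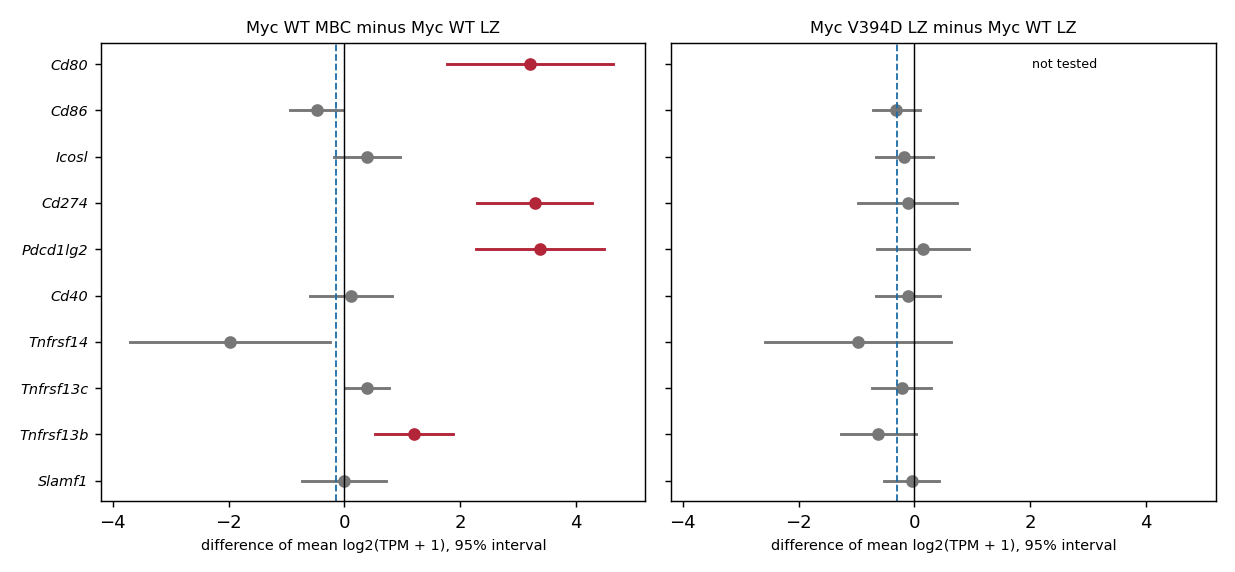
Differences in mean log2(TPM + 1) with 95% intervals from limma, for MBCs and for Myc V394D LZ B cells, each against Myc WT LZ B cells. Red marks an adjusted p under 0.05 and the dashed line the median over all genes tested, -0.14 in MBCs and -0.31 in Myc V394D; Cd80 was not tested between genotypes.

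Between genotypes, no gene of the 9 tested was called, and none had an unadjusted p under 0.05, whereas 1.24% of all genes tested did so in the higher and 15.7% in the lower direction. No gene of the 10 had groups that did not overlap, whereas 0.816% of all genes tested did not overlap in the higher and 9.16% in the lower direction. Of the 9, 8 had a negative difference and 1, Pdcd1lg2, a positive one, beside a median of -0.31 over all genes and a higher share of ribosomal RNA in Myc V394D. These signs depended on the scaling: after rescaling TPM by the median ratio, after quantile normalization and after removal of the ribosomal RNA genes, 6 of the 8, Cd86, Icosl, Cd274, Cd40, Tnfrsf13c and Slamf1, turned positive. The same scalings moved the median over all genes tested from -0.31 to -0.0114, -0.0101 and -0.0515, so that small negative values turn with it. Tnfrsf13b and Tnfrsf14 stayed negative in all 17 alternatives run, without passing the test in any (adjusted p = 0.13 to 1 and 0.207 to 1), but their size ranged from -0.81 to -0.28 and from -1.82 to -0.21. MBCs and Myc V394D were compared with the same Myc WT LZ libraries.

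For 2 genes well above the pseudocount of 1 TPM, a ratio within a library moves little with the RNA that takes the rest of it. Ratios of (TPM + 1) of 3 pairs were compared, each in both comparisons. The log2 ratio of Tnfrsf13b to Tnfrsf13c was -2.83, -2.83, -2.67 and -2.85 in Myc WT LZ, -3.02, -3.36, -2.91 and -3.50 in Myc V394D LZ and -2.67, -1.37 and -1.91 in MBCs. Every Myc V394D library lay below every Myc WT LZ library and every MBC library above, MBC library 1 only just (-2.667 against -2.668). The difference was -0.40 in Myc V394D (exact two-sided permutation p = 0.0286, adjusted over the 6 tests p = 0.0571) and 0.81 in MBCs (exact permutation p = 0.0286, adjusted p = 0.0571). Each was the smallest p that these group sizes allow, and neither passed the adjustment. In Myc V394D, summed plasma cell markers were lower and, in 3 of 4 libraries, erythroid markers higher than in Myc WT LZ, and their part in this ratio was not tested. As a share of the summed TPM of both receptors, Tnfrsf13b made up 12.1 to 13.5% in Myc WT LZ, 7.94 to 11.6% in Myc V394D LZ and 13.5 to 27.8% in MBCs.

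The ratio of Cd80 to Cd86 was 3.69 higher in MBCs than in Myc WT LZ (exact permutation p = 0.0286, adjusted p = 0.0571), in cells whose sorts differed in a gate on CD86, and 4.80 higher with a pseudocount of 0.1. In Myc V394D, where Cd80 was listed at 0 in 3 of 4 libraries, the value is set by the pseudocount, at -0.21 with 1 TPM (exact permutation p = 0.4, adjusted p = 0.6) and -1.80 with 0.1 TPM (adjusted p = 0.214), and is no measure of a ratio. The ratio of Pdcd1lg2 to Cd274 averaged 0.01 ± 0.66 (SD, n = 4) in Myc WT LZ, 0.27 ± 0.43 (n = 4) in Myc V394D LZ and 0.11 ± 0.62 (n = 3) in MBCs. The difference in this ratio between MBCs and Myc WT LZ, 0.10 (exact permutation p = 0.829, adjusted p = 0.829), was smaller than the spread between libraries of either group, and so was that of 0.26 in Myc V394D (exact permutation p = 0.514, adjusted p = 0.617). In the LZ libraries Cd274 was at 1.78 to 5.04 and Pdcd1lg2 at 2.23 to 5.32 TPM, near the pseudocount. The product of Pdcd1lg2 was also a gate of the MBC sort, which may set this ratio in part.

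**Figure D3:**
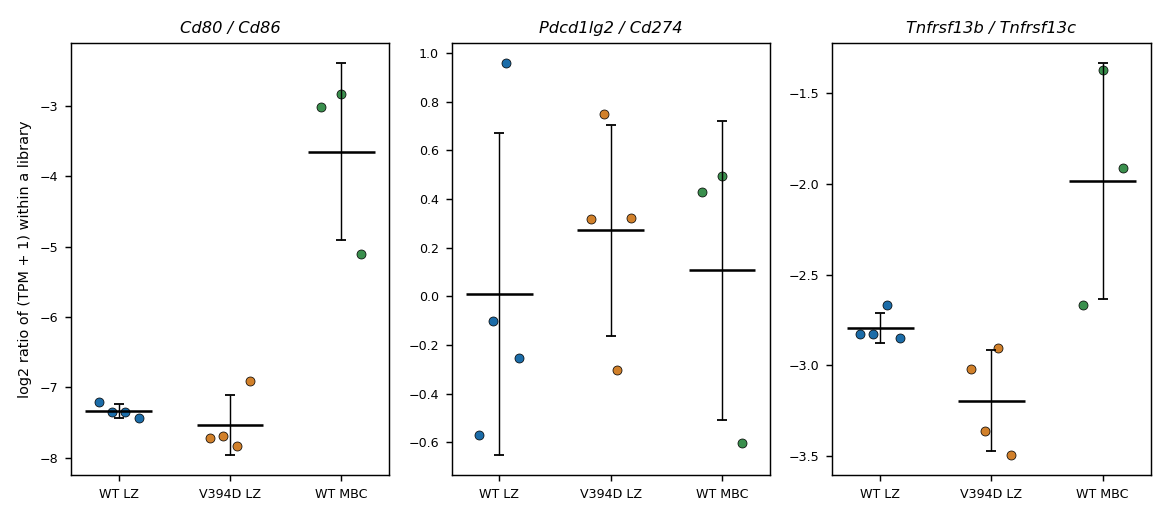
Log2 ratios of (TPM + 1) of 2 genes within each library; points are libraries, bars means and error bars SD. The Tnfrsf13b to Tnfrsf13c ratio was -3.50 to -2.91 in Myc V394D LZ, below the -2.85 to -2.67 of Myc WT LZ, and Pdcd1lg2 to Cd274 ratios overlapped in all groups.

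By mean TPM per gene, the order in Myc WT LZ was Tnfrsf13c, Cd86, Tnfrsf13b, Slamf1, Icosl, Cd40, Tnfrsf14, Pdcd1lg2, Cd274 and Cd80. The ranges of Tnfrsf13b and Slamf1, of Icosl and Cd40, and of Pdcd1lg2 and Cd274 overlapped, while the other neighbours did not. In Myc V394D LZ the order was the same but for Slamf1 above Tnfrsf13b, with overlapping ranges. In MBCs Tnfrsf13b stood above Cd86, with overlapping ranges, Pdcd1lg2 and Cd274 stood above Cd40, also overlapping, and Cd80 stood above Tnfrsf14 as the last.

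Over all 11 libraries, log2(TPM + 1) of Cd274 and Pdcd1lg2 had a Pearson r of 0.95, Cd80 and Pdcd1lg2 of 0.93 and Cd80 and Cd274 of 0.88, which describes mainly the step between the MBC and the LZ libraries. Within the 8 LZ libraries the highest r was that of Tnfrsf13c and Tnfrsf13b at 0.89, over points that share a sort and differ in their share of ribosomal RNA. Among 6463 genes that averaged 10 TPM or more and were above 0 in every library, the genes most like Cd274 over the 11 libraries were Mndal (r = 0.99) and St8sia6 (r = 0.99), those most like Pdcd1lg2 were Cd44 (r = 0.99) and Gimap1 (r = 0.98), and those most like Cd80 were Angptl1 (r = 0.98) and Tmem260 (r = 0.97). Those most like Tnfrsf13b were Stk17b (r = 0.98) and Cdc42se1 (r = 0.97), and those most like Tnfrsf13c were Elovl5 and Cnp (both r = 0.97). For Cd86 they were the pseudogene Gm6472 (r = 0.97) and Rps16 (r = 0.93), for Icosl Ctr9 (r = 0.95), for Tnfrsf14 Hmgn3 (r = 0.96) and Timm10b (r = 0.93), for Slamf1 Ddx27 (r = 0.96) and Nfs1 (r = 0.94), and for Cd40, with the lowest r of all, Atpaf1 (r = 0.78) and Lrrc57 (r = 0.77).

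The partners and signalling chains of these receptors were read from lists. Of 19 signal transducers of CD40 and the BAFF receptor, such as the TRAF adaptors and the NF-kB subunits, all 19 were tested and none was called in either comparison. Their median difference was 0.27 in MBCs and -0.17 in Myc V394D, against -0.14 and -0.31 over all genes tested. Of 14 genes induced by CD40 ligation, 1 was called, Fcer2a (CD23), higher in MBCs at 480.3 to 531 against 185 to 213 TPM in Myc WT LZ (1.36 ± 0.17, SE; limma adjusted p = 0.0037). That call was lost with the mouse as a block (1.33, adjusted p = 0.057). Fcer2a is also on the list of memory and naive markers, and was its most abundant gene in every group. The median of the list of genes induced by CD40 ligation was -0.33 in MBCs and -0.22 in Myc V394D. That list also holds Fas, the CD95 of the LZ gate. BAFF itself (Tnfsf13b) was at 0.63 TPM or less in every library, and APRIL (Tnfsf13) and their other receptor BCMA (Tnfrsf17) were listed at 0 in all 11. Sdc1, a heparan sulfate proteoglycan that also binds APRIL and is the CD138 of the sorts, was at 6.05 TPM in Myc V394D library 3, 5.40 in MBC library 4 and 0.12 or less in the others. None of these 4 genes reached the mean of 1 TPM needed for a test in either comparison.

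Of the 14 other B7, BTN and checkpoint ligands in the table, 8 were tested in MBCs and 3 were called higher; 1 of the 8, Cd276, reached the mean needed only through the MBC libraries. These were Lgals9 (galectin 9; 2.03 ± 0.45, SE; limma adjusted p = 0.0265), Btla (1.37 ± 0.24; adjusted p = 0.0128) and Cd47, the ligand of SIRPa (1.07 ± 0.23; adjusted p = 0.0244). All 3 calls were lost with the mouse as a block, at differences of 2.15, 1.38 and 1.09 (adjusted p = 0.14, 0.0802 and 0.183). Of 11 other SLAM family members and adaptors, 6 were tested and 1, the adaptor gene Sh2d1b1 (EAT-2), was called higher in MBCs (2.04 ± 0.50; adjusted p = 0.0371, 0.23 with the block). Of 9 receptors for cytokines of T cell help, 8 were tested, 7 with a positive difference, and Il2rg, the common gamma chain (1.33 ± 0.21; adjusted p = 0.00865, 0.0753 with the block), and Ifngr1 (1.02 ± 0.25; adjusted p = 0.0355, 0.269 with the block) were called higher. Of 17 other TNF and TNF receptor family members, 9 were tested and none was called. Over all genes tested between MBCs and Myc WT LZ, 4.17% were called higher and 5.04% lower, and the median difference was -0.14. Whether the lists differed from all genes in these shares or in sign was not tested. No gene of these lists was called between genotypes.

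**Figure D4:**
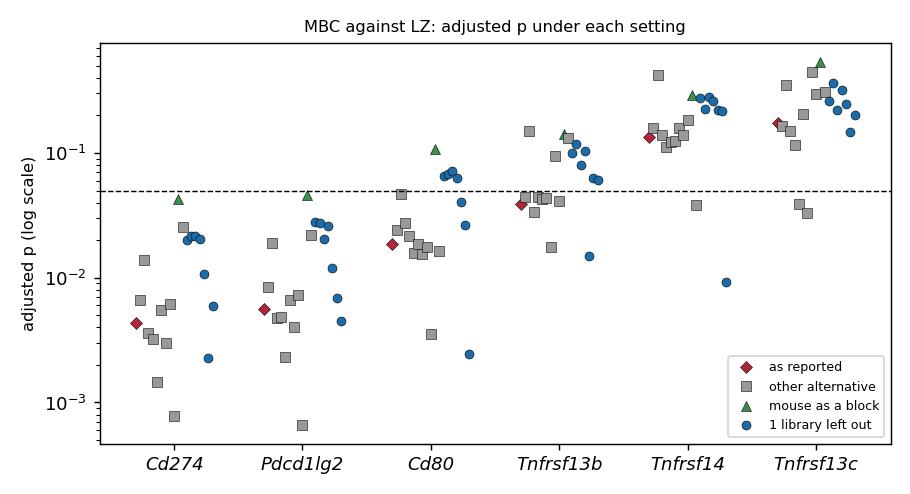
Adjusted p of MBCs against Myc WT LZ B cells on a log scale, for the fit as reported and each alternative; the dashed line is 0.05. Cd274 and Pdcd1lg2 stay under it throughout. Cd80 crosses it with the mouse as a block and on leaving out any Myc WT LZ library. Tnfrsf13b, under it as reported, lies above it in most alternatives, and Tnfrsf14 and Tnfrsf13c lie above it in most settings.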

How the data were processed

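RNA of 11 libraries of sorted splenic B cells was analysed: LZ B cells of 4 Myc WT and 4 Myc V394D mice and MBCs of 3 of the Myc WT mice. The authors aligned reads with STAR 2.5.2a to GRCm38, quantified Ensembl genes with RSEM 1.3.0 strand by strand, and deposited TPM with 2 decimals in 1 table. TPM hold no depth, so depth is unknown, no counting error can be given, and precision comes from the spread between mice alone. Opposite-strand genes overlap Cd274, Pdcd1lg2 and Tnfrsf13b.

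Groups were taken from the labels. Pairs of groups were fitted on log2(TPM + 1) in limma 3.58.1 (R 4.3.3; lmFit, then eBayes with its variance trend), keeping genes that averaged 1 TPM or more in the fitted libraries, two-sided, with Benjamini-Hochberg adjustment at 0.05. The authors tested counts with DESeq2, and counts were not used here. Members and ratios were also tested by exact permutation over samples, run in Python 3.11.15 (pandas 2.3.3; numpy 2.4.6). The fits were tested on simulated data. Symbols came from GENCODE M21 (48349 of 48795 genes; 446 had no symbol). MBC and LZ libraries of 1 number came from the same mouse by the labels, though their deviations from group means correlated at only 0.0071, 0.0114 and -0.0463.

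The genes and lists were chosen with earlier results of these data known. Named were the 10 genes, from each other list the called genes (at most 3 each way by size), and the 2 genes most like each of the 10 by Pearson r, of which 1 is not reported here. As alternatives, fits were rerun with 0.1 as pseudocount, with a minimum of 5 TPM or none, median-ratio and quantile scaling, removal of ribosomal RNA or of immunoglobulin and mitochondrial genes, no trend, 3 groups in 1 fit, the mouse as a block, mice of 1 title prefix, and each library left out. The fit with the mouse as a block did not use Myc WT LZ library 2.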

Additional observations from a re-analysis of the deposited data

Results flagged for a closer look

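Cd80 in Myc V394D LZ library 4 stood at 0.46 TPM, far from the other 3 libraries of that group, which were all at 0, so that any value above 0 would have stood apart. This was the 1 value set apart in 20 groups of 4 libraries examined, and chance alone sets apart about 1 in 20 such groups. The value is within the Myc WT LZ range of 0.41 to 0.78 TPM.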

How the results depend on the processing

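In MBCs, 4 genes, Cd80 included, were called as reported and 3 to 5 under the other alternatives. The exceptions were 2 with the mouse as a replicate block, a fit that also left out Myc WT LZ library 2, and 2 to 4 with 1 library left out. Leaving out Myc WT LZ library 2 with no block also gave 2. Both Cd274 and Pdcd1lg2 were called in all of these. No gene was called between genotypes under any alternative. With no filter all 48795 genes entered the fit, while no library had more than 19537 above 0, so that fit's variance estimate may be unreliable. Over all genes, 552 were called higher and 667 lower in MBCs, against 130 and 118 with the replicate block, which also left out Myc WT LZ library 2. Without that library and with no block, 205 and 137 were called, and without MBC library 4, 924 and 1830. Between genotypes 1 and 5 were called, against 12 and 242 without Myc V394D library 1. The causes were not tested. TPM give no depth, which limits what can be said of Cd80 and Tnfrsf14 at low values.

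Between genotypes, signs turned positive for 6 genes under each of 3 scalings. Rescaled by the median ratio, quantile normalized and with ribosomal RNA genes removed, the differences were 0.0314, 0.0124 and 0.00103 for Cd86, 0.16, 0.0791 and 0.13 for Icosl, 0.13, 0.22 and 0.12 for Cd274, 0.22, 0.12 and 0.19 for Cd40, 0.12, 0.16 and 0.0933 for Tnfrsf13c, and 0.30, 0.24 and 0.27 for Slamf1. With immunoglobulin and mitochondrial genes removed they were 0.0157 for Cd40 and 0.0881 for Slamf1. With 1 library left out they ranged from -0.32 to 0.0522 for Cd274, -0.23 to 0.0281 for Cd40 and -0.15 to 0.11 for Slamf1.

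In MBCs, Cd40 was at -0.0419 under quantile normalization and -0.0033 to 0.28 with 1 library left out. Slamf1 was at 0.22 with immunoglobulin and mitochondrial genes removed, 0.0232 with the replicate block and -0.31 to 0.34 with 1 library left out. With 1 library left out, the ratio of Pdcd1lg2 to Cd274 differed by -0.10 to 0.45 in MBCs, that of Cd80 to Cd86 by -0.42 to -0.11 in Myc V394D and that of Tnfrsf13b to Tnfrsf13c by -0.50 to -0.30 in Myc V394D. Without Myc V394D library 4 the last 2 had adjusted p = 0.0429, which follows from how many of the 6 tests reach the smallest p, 1 of them with Cd80 at 0 in every Myc V394D library, and is no stronger result. With a pseudocount of 0.1 the Cd80 to Cd86 difference was -1.80.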
